A study of Homo sapiens with 7 samples.

Results

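Among 6 peak lists made by chromatin immunoprecipitation and sequencing (ChIP-seq) in T-47D, an estrogen receptor-positive luminal breast cancer cell line, 2 were compared. One is labelled H2A.Z (antibody Abcam ab4174) and the other H3K9me3 (Abcam ab8898). Members were taken by the sample label alone, as every peak of either list on chromosomes 1 to 22 and X. They numbered 52188 peaks labelled H2A.Z and 20451 labelled H3K9me3, together 72639 of the 285703 peaks of all 6 lists (25.4%). The other lists, H3K4me2, H3K27ac, H3K36me3 and H3K27me3, served as landmarks. All libraries came from cells of this line grown in DMEM with serum, with 1 library per mark and no treatment named, and an input library was not analysed here. With no replicates there is no test across samples, so the values below describe these libraries. Intervals are 95% intervals and cover counting error only, with peaks taken as independent, and so are too narrow where peaks cluster. The read depth of each library is unknown, and peak numbers are therefore not amounts of a mark.

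As background, H2A.Z is a variant of histone H2A that cells place in nucleosomes beside the starts of active genes and at enhancers, and also at poised genes. H3K9me3 is a methylation of histone H3 found in heterochromatin. In human cells it is known for covering clusters of zinc finger genes, where it lies beside H3K36me3 near the 3′ ends of the genes. H3K4me2 and H3K27ac mark active promoters and enhancers, H3K36me3 marks the bodies of transcribed genes and H3K27me3 marks Polycomb-repressed chromatin. On these terms some values below went against the labels and others did not, and each list is called by its label only.

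Both promoters printed next belong to housekeeping genes that had a peak labelled H3K9me3 upstream of the gene start, and none labelled H2A.Z within 5 kb. NPM1 encodes the nucleolar protein nucleophosmin, and its peak (hg19, chr5:170813868-170814629, 762 bp) was centred 459 bp upstream of the start. This peak overlapped H3K4me2 and lay 21447 bp from H3K27ac. TUBA1B encodes an alpha-tubulin, and its peak (hg19, chr12:49526385-49527312, 928 bp) was centred 1545 bp upstream, 3299 bp from an H3K27ac peak and 27088 bp from H3K4me2. The sequences are the 250 bases before each start in RefSeq, build GRCh38.p14, with CG dinucleotides in capitals, at chr5:171387599-171387848 on the plus strand for NPM1 (the first of 2 entries) and chr12:49131396-49131645 on the minus strand for TUBA1B. Peaks are on another build, so the bases under them were not marked. By hg19 position the near edge of the peak lay 0.0790 kb from the NPM1 start. At TUBA1B it lay 1.08 kb away, farther than the 250 bases printed.
NPM1: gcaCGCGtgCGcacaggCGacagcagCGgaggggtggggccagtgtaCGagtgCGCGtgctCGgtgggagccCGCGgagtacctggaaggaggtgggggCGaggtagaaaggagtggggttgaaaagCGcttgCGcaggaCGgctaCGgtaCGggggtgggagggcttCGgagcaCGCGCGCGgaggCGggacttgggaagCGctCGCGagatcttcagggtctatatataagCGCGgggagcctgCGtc
TUBA1B: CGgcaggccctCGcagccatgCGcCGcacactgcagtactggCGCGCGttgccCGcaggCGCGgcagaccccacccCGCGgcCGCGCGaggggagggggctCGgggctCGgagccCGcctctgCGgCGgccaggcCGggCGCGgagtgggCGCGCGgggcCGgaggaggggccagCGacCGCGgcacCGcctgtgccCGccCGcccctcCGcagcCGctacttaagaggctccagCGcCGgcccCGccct
NPM1 held 29 CG and TUBA1B 38, where the median over 35116 RefSeq promoters was 11. As many CG or more stood in 14.1% and 3.28% of promoters of this length. Of the other genes named below that had such a peak and a RefSeq entry, MALAT1 held 34 CG (6.84%) and KRT8 held 1 (93.9%). The RefSeq gene of KRT8 spans 52670 bp, against 7898 bp as placed on hg19. Its sequence may therefore precede another start than the one near the peak, so its count is not compared with the others.

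The known active loci were checked first. They were 25 genes placed by hg19 position, 10 housekeeping genes and 15 of the luminal program of this line. No start had a peak labelled H2A.Z within 5 kb (0 of 25, Wilson upper bound 13.3%), where 12.2% of all 10 kb bins of the genome span analysed held one. None had one within 10 kb either, where 17.5% of the span lay that close. The nearest such peak lay 24.2 kb away at the closest gene, AGR2, a secretory pathway protein disulfide isomerase, and 167 kb away at the median gene. Peaks labelled H3K9me3 lay within 5 kb of 7 of the 25 starts (Wilson interval 14.3 to 47.6%), against 7.10% of 10 kb bins, and within 2 kb of 3. H3K4me2 reached 22 of the same starts within 5 kb, H3K36me3 reached 21 and H3K27ac 16, against 18.6, 12.2 and 9.20% of bins. Among the 15 luminal genes, which check the cell line, H3K4me2 reached 14 starts and H3K27ac 10. H3K27me3 reached 0 of the 25 starts within 5 or 10 kb, against 13.2% of bins and 17.9% of the span within 10 kb. The list labelled H2A.Z, like H3K27me3, thus reached no active gene start examined. For both lists the upper bound of 13.3% held the share of bins, so neither absence within 5 kb is read as lower than elsewhere.

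**Figure D1:**
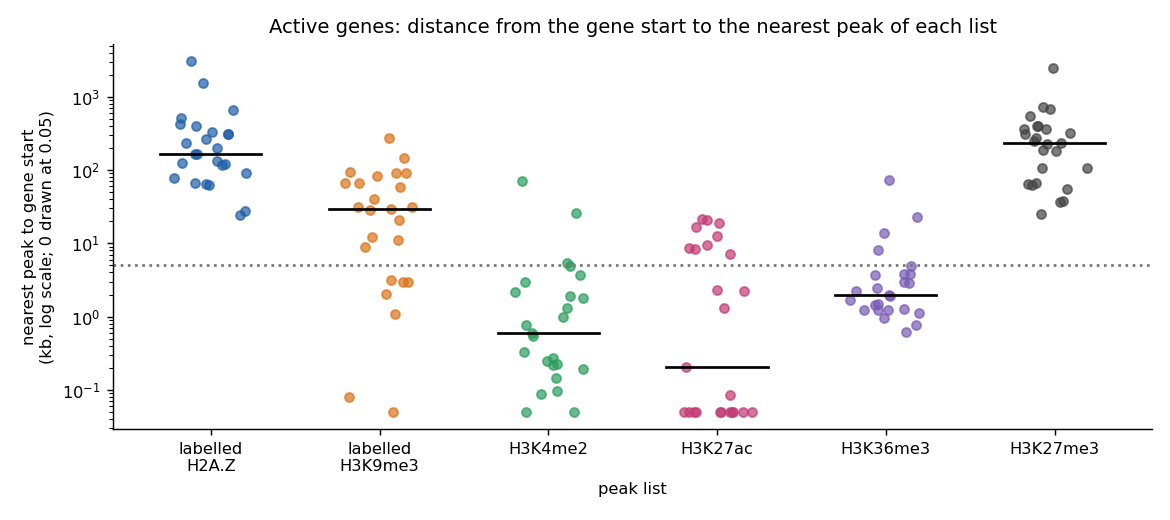
Distance in kb (log axis) from the start of each of 25 active genes to the nearest peak of each list. Points are genes, bars are medians, the dotted line is 5 kb and a peak over the start is drawn at 0.05 kb. No point of the list labelled H2A.Z lies under 24.2 kb, and 7 points of the list labelled H3K9me3 lie under 5 kb.

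The 7 genes reached by the list labelled H3K9me3 were ACTB, TUBA1B, NPM1, MALAT1, TFF3, KRT8 and CCND1. TFF3, a secreted trefoil factor of luminal cells, had a 924 bp peak over its start (chr21:43735221-43736144) that overlapped H3K4me2 and lay 781 bp from H3K27ac. ACTB, cytoplasmic actin, had a 774 bp peak centred 2415 bp upstream (chr7:5572260-5573033) that overlapped H3K4me2 and lay 11418 bp from H3K27ac. CCND1, the cyclin that drives entry into S phase, had a 685 bp peak centred 3336 bp upstream (chr11:69452195-69452879) that overlapped both H3K4me2 and H3K27ac. KRT8, a simple epithelial keratin, had a 759 bp peak centred 3354 bp upstream (chr12:53301843-53302601) on H3K27ac. MALAT1, an abundant nuclear noncoding RNA, had a pair of peaks, of which one was 2968 bp wide (chr11:65257449-65260416). Neither peak of the pair overlapped an active mark, at 4904 and 3207 bp from H3K4me2 and 17370 and 15673 bp from H3K27ac. Most of these peaks lay upstream of the start rather than over it, and 6 of the 7 genes had their peak wholly before the start. ESR1, PGR, GATA3, FOXA1 and XBP1, which encode the receptors and transcription factors that define luminal cells, had no peak of either list within 5 kb. Their nearest peak labelled H3K9me3 lay 90.8, 147, 8.94, 11.2 and 274 kb away.

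Genes of other cell types were placed the same way, and the list labelled H3K9me3 reached a similar share of them. Of 13 such genes, 4 had a peak labelled H3K9me3 within 5 kb (30.8%, 12.7 to 57.6) and 0 had a peak labelled H2A.Z within 5 kb. The 4 were VIM (vimentin), COL1A1 (a collagen), PAX6 and NEUROD1 (neural transcription factors). At VIM and COL1A1 the peak overlapped both H3K4me2 and H3K27ac, and at NEUROD1 it overlapped H3K4me2 alone. At PAX6 it overlapped neither, 106844 bp from H3K4me2 and 2362 bp from H3K27ac. KRT5, a basal keratin, had the closest peak labelled H2A.Z among the 38 genes, at 8.80 kb, and an H3K27me3 peak at 2.06 kb. The gene positions therefore separated the lists from each other but did not separate active from other genes within the list labelled H3K9me3.

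In width the lists were alike. The commonest width, 501 bp, was shared by 34842 peaks labelled H2A.Z and 13283 labelled H3K9me3, and is also the commonest width of the other lists. Wider peaks made up 33.2% of the list labelled H2A.Z (32.8 to 33.6) and 35.0% of the list labelled H3K9me3 (34.4 to 35.7). Among them the median width was 771 bp and 788 bp, with quartiles of 651 to 1051 and 653 to 1104 bp. Peaks over 2 kb were somewhat commoner under the H2A.Z label, at 727 peaks or 1.39% against 164 peaks or 0.802% (0.689 to 0.934), and its widest peak reached 6719 bp against 3878 bp. Every other list had more wide peaks, from 42.1% for H3K27me3 to 61.4% for H3K36me3. The widest peak of H3K36me3 reached 75661 bp, and neither list held domains of that length. Peaks labelled H2A.Z covered 1.22% of the analysed span and those labelled H3K9me3 0.484%.

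Spacing separated them. A peak labelled H2A.Z had its nearest neighbour of the same list at a median gap of 2.62 kb (quartiles 1.18 and 7.17), and a peak labelled H3K9me3 at 22.9 kb (7.02 and 62.5). The analysed span held 1 peak labelled H2A.Z per 53.1 kb and 1 labelled H3K9me3 per 136 kb, so that span per peak was 20.3 and 5.92 times the median gap. A neighbour within 10 kb was present for 80.2% (79.9 to 80.6) and 31.2% (30.6 to 31.9). Among peaks labelled H2A.Z the share was higher for peaks wider than 501 bp (85.7%, 85.2 to 86.2) than for narrower ones (77.5%, 77.1 to 77.9), whereas under the H3K9me3 label it was lower for the wider (29.2%, 28.2 to 30.3) than for the narrower (32.3%, 31.5 to 33.1). In the other lists the span per peak ranged from 8.62 times the median gap, for H3K4me2, to 37.9 times, for H3K36me3, so the list labelled H2A.Z was inside this range and the list labelled H3K9me3 under it.

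**Figure D2:**
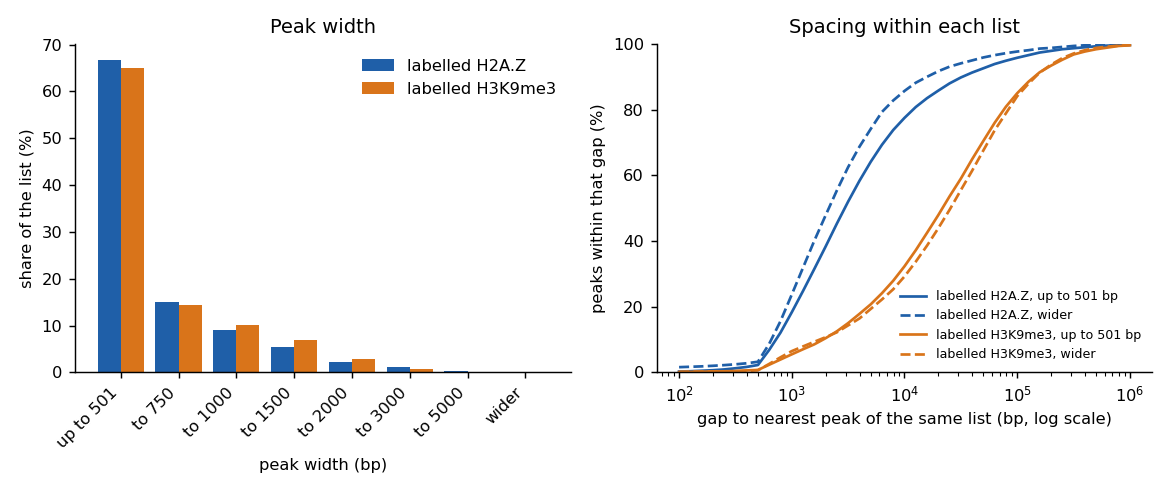
Left, share of each list (%) by peak width in bp. Right, share of peaks (%) with another peak of the same list within a gap (bp, log axis), with solid lines for peaks up to 501 bp and dashed lines for wider ones. The width bars nearly coincide, while at 10 kb the curves labelled H2A.Z stand at 77.5 and 85.7% and those labelled H3K9me3 at 32.3 and 29.2%.

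Chaining peaks no more than 10 kb apart gave clusters of very different size. In the list labelled H2A.Z, 859 clusters of 10 or more peaks held 31.1% of the list (30.7 to 31.5), and 19.8% of peaks stood alone. In the list labelled H3K9me3, 7 such clusters held 0.421% (0.341 to 0.519), and 68.8% of peaks stood alone. The largest cluster labelled H2A.Z had 130 peaks over 457 kb on chromosome 5 (169037322 to 169493909) and contained 29 peaks labelled H3K9me3, 4 of H3K27me3, 2 of H3K4me2 and none of H3K27ac or H3K36me3. The largest cluster labelled H3K9me3 had 19 peaks over 79.0 kb on chromosome 11 (132410789 to 132489819) and also contained 19 peaks labelled H2A.Z and no peak of the 4 other lists. Of the 859 large clusters labelled H2A.Z, 624 contained a peak labelled H3K9me3 (72.6%) and 487 one of H3K27me3 (56.7%), against 17.3% with H3K4me2, 2.21% with H3K36me3 and 1.63% with H3K27ac. The 859 clusters summed to 61.5 Mb, so some meetings come with length. No background for stretches of such length was taken, so none of these shares is read as high or low.

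Density along the genome was uneven in both lists and more so under the H2A.Z label. Over the 23 chromosomes the list labelled H2A.Z ran from 1.71 peaks per Mb on chromosome 13 to 46.7 on chromosome 20, a 27.3-fold range with a median of 18.2. The list labelled H3K9me3 ran from 1.84 on chromosome X (1.60 to 2.11) to 15.7 on chromosome 11 (15.0 to 16.4), an 8.52-fold range. In bins of 1 Mb, the densest 5% of bins held 38.2% of peaks labelled H2A.Z and 21.1% of peaks labelled H3K9me3. The densest bins were chromosome 20 from 59 to 60 Mb (259), chromosome 12 from 128 to 129 Mb (254) and chromosome 11 from 132 to 133 Mb (252) for the list labelled H2A.Z. For the list labelled H3K9me3 they all lay on chromosome 11, from 132 to 133 Mb (111), from 131 to 132 Mb (98) and from 127 to 128 Mb (96). These last 3 bins also held 252, 226 and 214 peaks labelled H2A.Z and at most 2 H3K27ac peaks each. Only the bin from 132 to 133 Mb was among the 3 densest of both lists. The bins on chromosomes 20 and 12 held 60 and 49 peaks labelled H3K9me3.

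Distances to the landmarks also differed. The share of peaks within 10 kb of H3K27ac was 2.09% (1.97 to 2.21) under the H2A.Z label and 44.2% (43.5 to 44.8) under the H3K9me3 label, where 14.6% of the analysed span lay that close. Within 10 kb of H3K4me2 the shares were 12.8% (12.5 to 13.1) and 60.1% (59.4 to 60.7), against 29.7% of the span. The list labelled H2A.Z was thus below the background for both active marks and the list labelled H3K9me3 above it. Within 10 kb of H3K27me3 the order turned, with 47.6% (47.2 to 48.0) and 4292 of 20451 peaks (20.4 to 21.6%), against 17.9% of the span. Since both lists are uneven over chromosomes, the span was also weighted by the chromosomes on which each list lies. The weighted background near H3K27me3 was 23.1% for the list labelled H2A.Z and 21.5% for the list labelled H3K9me3, whose own interval held it. For all 3 marks the order of the lists was the same on each of the 23 chromosomes.

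In medians, a peak labelled H2A.Z lay 239 kb from H3K27ac, 51.7 kb from H3K4me2 and 12.3 kb from H3K27me3. A peak labelled H3K9me3 lay 24.1 kb, 2.64 kb and 72.0 kb away from them. Seen from the marks, an H3K27ac peak had its nearest peak labelled H3K9me3 at a median of 21.4 kb and its nearest labelled H2A.Z at 200 kb. An H3K27me3 peak had them at 57.4 and 7.12 kb. The nearest list from an active peak was therefore the one labelled H3K9me3, although the list labelled H2A.Z holds more peaks.

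Both lists mostly lay away from H3K36me3, at a median of 363 kb under the H2A.Z label and 103 kb under the H3K9me3 label. Overlap was rare in both, with 271 peaks labelled H2A.Z (0.519%, 0.461 to 0.585) and 32 labelled H3K9me3 (0.156%, 0.111 to 0.221), where H3K36me3 covered 3.63% of the span. Within 10 kb the shares were 1.82% (1.71 to 1.94) and 20.4% (4175 peaks), against 15.9% of the span, and the share under the H3K9me3 label was higher on all 23 chromosomes. Weighted by chromosome the background was 17.3% and 17.6%, so that the list labelled H3K9me3 stood at 1.16 times it. Its wider peaks were above the span and its narrower ones under it. The difference between the lists, labelled H2A.Z minus labelled H3K9me3, was -18.6 percentage points within 10 kb, -0.698 within 1 kb (-0.881 to -0.529) and 0.363 for overlap, and so turned sign at overlap.

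**Figure D3:**
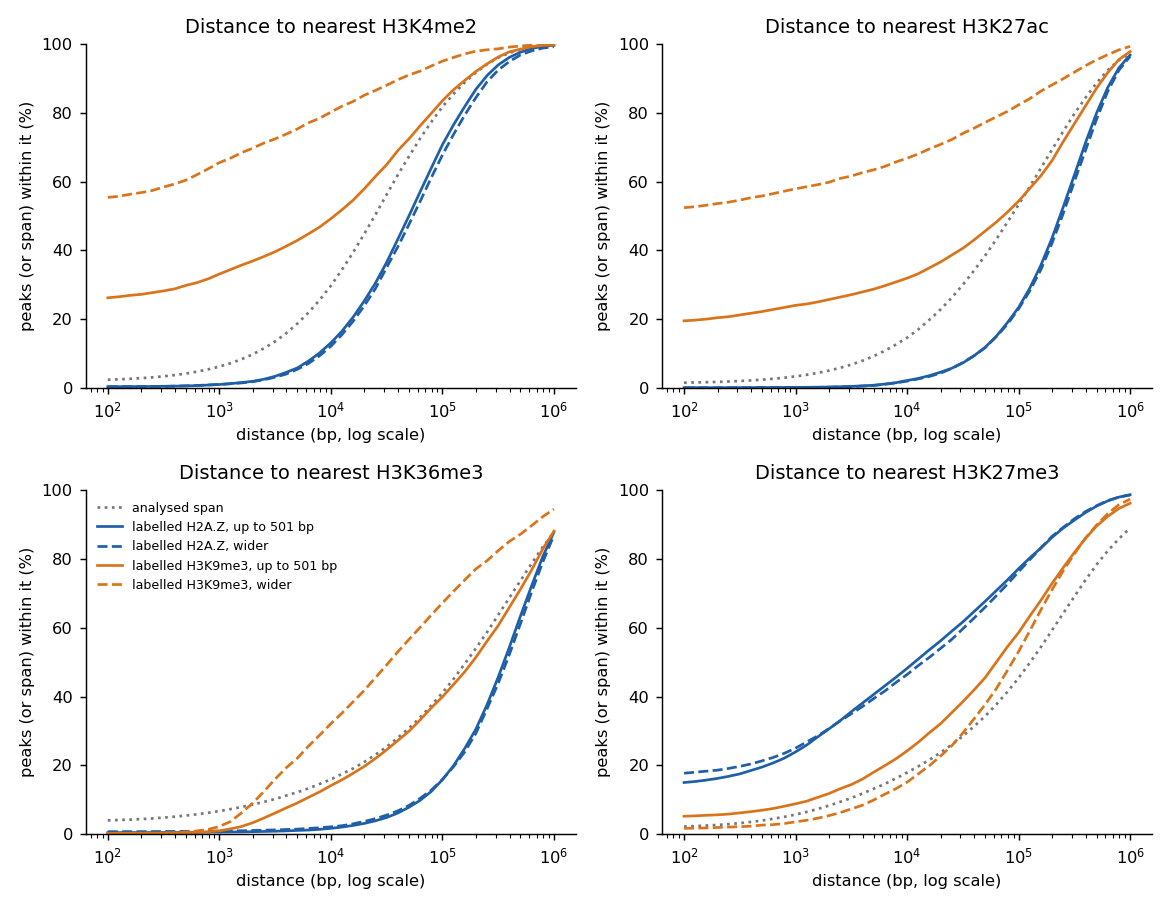
Share of peaks (%) within a given distance (bp, log axis) of the nearest peak of each of 4 marks, for both lists and both width classes (solid, up to 501 bp; dashed, wider). The dotted line is the share of the analysed span within that distance. The curves labelled H2A.Z run under the span for H3K4me2, H3K27ac and H3K36me3 and over it for H3K27me3, and the wide peaks labelled H3K9me3 run over it for H3K4me2 and H3K27ac, with 80.2% and 66.8% at 10 kb.

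Shares differed by width far more in the list labelled H3K9me3 than under the other label. Among peaks labelled H3K9me3, 49.2% of those of up to 501 bp lay within 10 kb of H3K4me2 (48.4 to 50.1) and 80.2% of wider ones did (79.2 to 81.1). For H3K27ac these shares were 31.9% (31.1 to 32.7) and 66.8% (65.7 to 67.9), and for H3K36me3 14.1% (13.5 to 14.7) and 32.1%. For H3K27me3 they ran the other way, 24.2% (23.5 to 24.9) and 15.1% (14.3 to 15.9), on either side of the 17.9% of the span. Wide peaks of this list were thus nearer to active marks, and farther from H3K27me3, than its narrow ones. Under the H2A.Z label the paired shares were 13.1 and 12.1% for H3K4me2, 2.15 and 1.96% for H3K27ac, 1.68 and 2.12% for H3K36me3 and 48.2 and 46.4% for H3K27me3.

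Over finer width classes, overlap of peaks labelled H3K9me3 with H3K27ac went from 2525 of 13283 (18.4 to 19.7%) at up to 501 bp, where H3K27ac covered 1.29% of the span, through 40.5% up to 750 bp and 52.3% up to 1000 bp, to 71.8% of the 156 peaks of 2000 to 3000 bp. All 8 peaks wider than that overlapped H3K27ac and 3 of them overlapped H3K4me2, which covered 1.90%. Overlap of this list with H3K27me3 went from 4.65% to 0.641% over the same classes, where H3K27me3 covered 1.75% of the span. In the list labelled H2A.Z, overlap with H3K27me3 went from 13.7% at up to 501 bp to 24.3% at 2000 to 3000 bp, and overlap with H3K27ac stayed at or under 0.172% up to that width. A wider peak meets another list more often by its length. From the narrowest class to 2000 to 3000 bp, the share with H3K27me3 fell under the H3K9me3 label and rose under the H2A.Z label. The part of peak length in these shares was not tested. Where a peak labelled H3K9me3 overlapped H3K27ac, a median of 95.4% of its length was shared and 44.7% of such peaks (43.4 to 45.9) lay wholly inside H3K27ac. Where a peak labelled H2A.Z overlapped H3K27me3 the median was 72.6% and 25.2% (24.3 to 26.2) lay wholly inside.

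**Figure D4:**
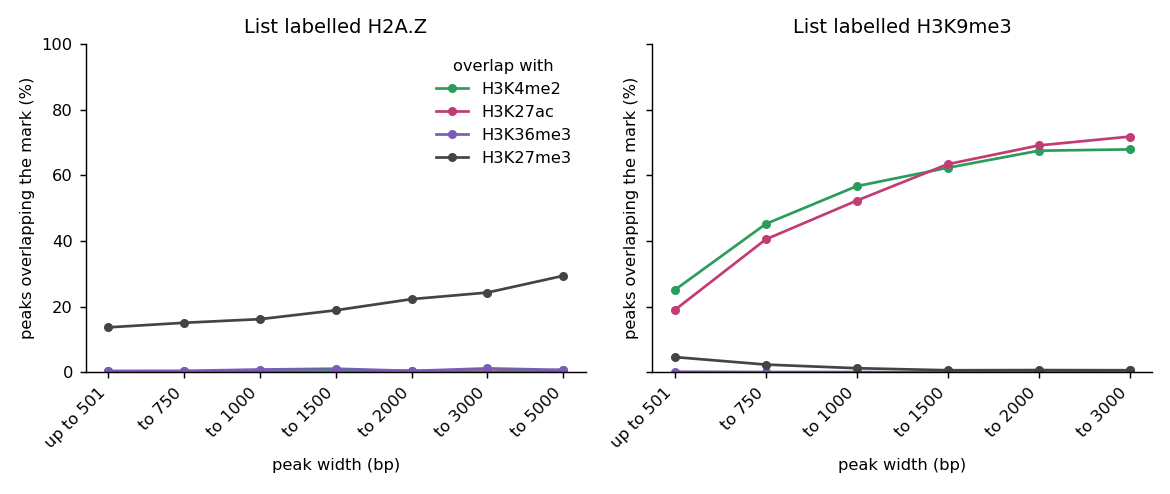
Share of peaks (%) that overlap each of 4 marks by at least 1 bp, by peak width in bp, for the list labelled H2A.Z (left) and labelled H3K9me3 (right). Width classes with fewer than 20 peaks are not drawn. On the right H3K27ac reaches 71.8%, and on the left only H3K27me3 is above 1.20%.

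The list labelled H3K9me3 divided by position. Near active marks, within 10 kb of H3K4me2 or H3K27ac, lay 13081 of its peaks (63.3 to 64.6%), and 46.9% of these were wider than 501 bp. The other 7370 (35.4 to 36.7%) lay away from active marks, and 13.9% of these were wider. A peak labelled H2A.Z stood within 10 kb of 70.4% of those away (69.3 to 71.4), with a median distance of 2.83 kb, and within 10 kb of 12.1% of those near (11.5 to 12.6), with a median of 109 kb. The list labelled H2A.Z is itself sparse near active marks, so the background was taken from span in the same position and weighted by chromosome, a comparison added after seeing the data. It was 33.5% away from active marks and 10.4% near them. Peaks labelled H3K9me3 away from active marks were thus well above their background, on 22 of 23 chromosomes, and those near active marks at 1.16 times theirs, and above it on 11. Seen from the list labelled H2A.Z, a peak labelled H3K9me3 stood within 10 kb of 28.9% of peaks away from active marks (background 11.1%) and 34.2% of those near (background 27.8%). In both directions the excess over background was larger away from active marks, although no test was made of that difference. Away from active marks, a peak labelled H2A.Z stood within 10 kb of 70.6% of narrow and 69.3% of wide peaks labelled H3K9me3. Near active marks these shares were less alike, at 14.6% (13.8 to 15.5) and 9.15% (8.46 to 9.90). From the list labelled H2A.Z they were 26.8% (26.3 to 27.3) and 33.1% (32.3 to 33.8) away, and 33.6 and 35.5% near.

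These parts also differed over chromosomes. Peaks labelled H3K9me3 near active marks ranged 5.92-fold in density over the 23 chromosomes, from 1.52 per Mb on chromosome X to 9.01 on chromosome 17. Those away from active marks ranged from 0.0582 per Mb on chromosome 22 to 8.59 on chromosome 11. Chromosomes 11 and 20, which make up 6.90% of the span, held 20.9% of the peaks away from active marks, 10.6% of those near them, and 17.3% of the peaks labelled H2A.Z away from active marks. In the list labelled H2A.Z, 86.7% of peaks (86.4 to 87.0) lay away from active marks. With no landmark of any of the 4 marks within 10 kb were 46.4% of its peaks (45.9 to 46.8) and 24.0% of the list labelled H3K9me3 (23.4 to 24.6), and with H3K27me3 alone 39.1% (38.7 to 39.5) and 11.4%. With H3K4me2 and H3K27ac and no other mark were 0.745% and 22.1% (21.6 to 22.7). No share of the span was taken for these combinations or for all positions away from active marks. The shares of each list in them are therefore not read as high or low.

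The zinc finger loci were 18 windows of clustered zinc finger genes, 7 of them on chromosome 19, that together made up 0.738% of the span. Over all windows together both lists were denser than elsewhere. The list labelled H2A.Z had 651 peaks in them, or 31.8 per Mb (exact Poisson interval 29.4 to 34.4) against 18.7 elsewhere, a ratio of 1.70. The list labelled H3K9me3 had 235, or 11.5 per Mb (10.1 to 13.1) against 7.35, a ratio of 1.56. Against the rest of the same chromosomes, a comparison added after seeing the data, the ratios were 3.56 (3.29 to 3.84) and 1.62 (1.42 to 1.85). Against the whole span, the 7 windows of chromosome 19 alone had lower ratios, of 1.03 and 1.26, than the 11 others, with 2.95 and 2.14. Against the rest of the same chromosomes the chromosome 19 windows had 4.62 and 1.31, and the 11 others 3.08 and 2.22. The list labelled H2A.Z was thus the denser on chromosome 19 by that measure. Peaks labelled H2A.Z were denser than the mean of their chromosome in 17 of the 18 windows, and at least 2-fold so in 15. Peaks labelled H3K9me3 were denser in 15 and at least 2-fold so in 7. The ratios against the whole span were 3.12 for H3K36me3, 1.85 for H3K27ac, 1.25 for H3K4me2 and 0.717 for H3K27me3. Against the rest of the same chromosomes they were 1.67, 0.741, 0.785 and 0.799 in that order. The 2 active marks were thus above 1 by the first measure and below 1 by the second.

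What lay beside the peaks differed between the lists. In the zinc finger windows, 121 of 235 peaks labelled H3K9me3 overlapped H3K27ac (51.5%, 45.1 to 57.8), against 30.1% elsewhere, and 3 of 651 labelled H2A.Z did (0.461%), where H3K27ac covered 2.76% of window positions. H3K4me2 was overlapped by 119 of the 235 (50.6%, 44.3 to 57.0), against 35.1% elsewhere, and by 0 of the 651 (Wilson upper bound 0.587%), where it covered 2.44%. H3K36me3 covered 11.9% of window positions. It was overlapped by 130 of 651 peaks labelled H2A.Z (17.1 to 23.2%), against 0.274% (0.232 to 0.323) elsewhere, and by 1 of 235 labelled H3K9me3 (0.426%, 0.0752 to 2.37). Within 10 kb of H3K36me3 lay 45.9% (42.1 to 49.8) and 55.7% (49.4 to 62.0), where 49.3% of window positions lay that close. In these windows the peaks labelled H3K9me3 were thus often on active marks and almost never on H3K36me3. Most peaks labelled H2A.Z were on neither. Their overlap with H3K36me3 (17.1 to 23.2%) was still above the 11.9% of window positions covered, and that of the other list was below it. The part of peak length in this was not tested. The share of peaks labelled H2A.Z wider than 501 bp was 45.8% in the windows and 33.1% elsewhere, and for the other list it was 42.6 and 35.0%.

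**Figure D5:**
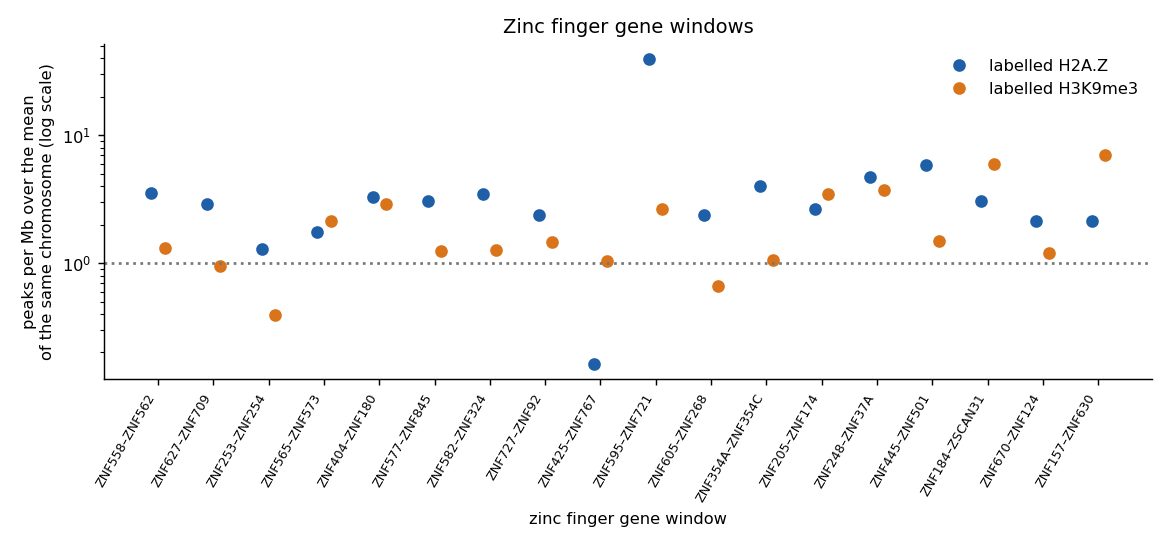
Peaks per Mb in each of 18 zinc finger gene windows, divided by the mean of the same chromosome (log axis; the dotted line is 1), for both lists. Windows are named by their first and last zinc finger gene. The list labelled H2A.Z is above 1 in 17 windows and the list labelled H3K9me3 in 15.

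The windows with the most peaks labelled H2A.Z were ZNF727 to ZNF92 on chromosome 7 (95 peaks), ZNF582 to ZNF324 on chromosome 19 (68) and ZNF354A to ZNF354C on chromosome 5 (65). The last stood at 130 peaks per Mb, 4.04 times its chromosome. The farthest above its chromosome was ZNF595 to ZNF721 on chromosome 4, with 44 peaks at 97.8 per Mb, 39.4 times the sparse mean of that chromosome, and 31 of the 44 lay within 10 kb of H3K36me3. ZNF425 to ZNF767 on chromosome 7 was the exception, with 3 peaks at 0.163 times its chromosome. The windows with the most peaks labelled H3K9me3 were ZNF565 to ZNF573 on chromosome 19 (29), ZNF184 to ZSCAN31 on chromosome 6 (26) and ZNF582 to ZNF324 (24). The 3 widest zinc finger peaks labelled H2A.Z were 6327 bp (chr4:393377-399703), 5335 bp (chr5:178358075-178363409) and 4299 bp wide (chr3:44766325-44770623), and the closest of them to H3K27ac was 31711 bp away. The 3 widest labelled H3K9me3 were 2083 bp (chr7:63504471-63506553), 1993 bp (chr19:37996625-37998617) and 1859 bp wide (chr6:28302728-28304586), and each overlapped H3K27ac.

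Some of these values went against the labels and some did not. No peak labelled H2A.Z lay within 5 kb of the 25 active gene starts. The Wilson upper bound of 13.3% there held the 12.2% of 10 kb bins with such a peak. Of the peaks labelled H3K9me3, 30.4% overlapped H3K27ac (29.8 to 31.0), which covered 1.29% of the span. On the other side, 47.6% of peaks labelled H2A.Z lay within 10 kb of H3K27me3, a mark of repressed and poised genes, at 2.06 times the weighted background. Most of these had H3K27me3 as the only 1 of the 4 marks (39.1% of the list), and 7.52% of the list had it with H3K4me2 alone. No background was taken for these combinations. The list labelled H3K9me3 was 1.56 times as dense in zinc finger windows as elsewhere. The list labelled H2A.Z stood at 1.70 times and H3K27ac at 1.85 times there, so this ratio did not set the H3K9me3 label apart. Against the rest of the same chromosomes the list labelled H3K9me3 stood at 1.62 and the list labelled H2A.Z at 3.56. By that measure H3K36me3 stood at 1.67 and H3K27ac at 0.741. In the windows H3K36me3 covered 11.9% of positions. It was overlapped by 130 of 651 peaks labelled H2A.Z (17.1 to 23.2%) and 1 of 235 labelled H3K9me3 (0.0752 to 2.37%). The share under the H2A.Z label was thus above that cover and the share under the H3K9me3 label below it. Within 10 kb of H3K36me3 the order turned, at 45.9% and 55.7%, against 49.3% of window positions. Whether labels, files or antibodies were exchanged was not tested, since each mark has 1 library.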

How the data were processed

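The 6 deposited peak lists of T-47D, 1 per mark, were used. The values the authors deposited are peak start and end positions in bp (other unit), with no height, score or p-value. Bowtie2 2.1.0 and HOMER 4.2 and the builds hg19 and GRCh37 are named per the submitters' processing notes, with no role. How peaks were called, with or without the input, and at what depth is not given in the sources used here. Only chromosomes 1 to 22 and X were used. The analysed span (2772.7 Mb) ran from the first to the last peak of any list on each chromosome, without 58 peak-free stretches of 1 Mb or more. Distance ran from edge to edge and was 0 where peaks shared at least 1 bp. Shares have Wilson intervals, differences of shares Newcombe intervals and densities exact Poisson intervals, all at 95%. The background is the share of the span within the same distance. Genes and windows were placed by hg19 position written from general knowledge, since no hg19 annotation was used here. All 38 genes lay on the chromosome RefSeq gives and 29 had its GRCh38.p14 length within 5%. Promoter sequences were found for 4 of 7 genes. The active list held 10 housekeeping and 15 luminal genes. Named were active genes with a peak of either list within 5 kb, the 3 zinc finger windows with most peaks, the 3 densest 1 Mb bins, the largest cluster and the 3 widest zinc finger peaks of each list. Other named genes and windows were chosen after their values were seen. The comparison, loci and lists were chosen with earlier results of these data known. Distance functions were tested on simulated data, where 1500 of 1500 distances equalled a direct search. Python 3.11.15, numpy 2.4.6 and scipy 1.17.1 were used.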

Additional observations from a re-analysis of the deposited data

Results flagged for a closer look

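Peaks outside chromosomes 1 to 22 and X were left out of the comparisons and were present in both lists. There were 324 in the list labelled H2A.Z (0.617% of its deposited peaks) and 274 in the list labelled H3K9me3 (1.32%). In the other 4 lists this share ran from 0.269 to 0.497%.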

How the results depend on the processing

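With no replicates and no scores, settings could change only distances, widths and chromosomes. No difference changed sign among the settings of its own measure, but the H3K36me3 difference was negative within 10 kb and positive for overlap (0.363, and 0.331 with the stricter overlap). The differences in share within 10 kb, labelled H2A.Z minus labelled H3K9me3, were -47.3, -42.1, -18.6 and 26.6 percentage points for H3K4me2, H3K27ac, H3K36me3 and H3K27me3. In that order they were -43.5, -35.7, -0.698 and 17.3 within 1 kb, and -17.8, -40.9, -33.7 and 20.2 within 100 kb. They were -61.0, -52.0, -22.5 and 24.8 for peaks above the median width in each list, -36.1, -29.8, -12.4 and 24.0 for peaks up to 501 bp, and -68.0, -64.9, -30.0 and 31.3 for wider ones. The mean over the 23 chromosomes, added after seeing the data, gave -54.7, -48.3, -19.8 and 29.2. Without chromosomes 11 and 20 the values for H3K4me2, H3K27ac and H3K27me3 were -49.7, -44.1 and 27.9. Distance between centres gave -16.5 for H3K36me3, and merging peaks within 1 kb gave -46.5 for H3K4me2. Requiring the overlap to cover 50% or more of the shorter peak, the differences in overlap went from -35.0 to -30.3 for H3K4me2, from -30.3 to -27.4 for H3K27ac and from 11.2 to 8.54 for H3K27me3. Active genes with a peak labelled H3K9me3 went from 7 to 3 within 2 kb. The zinc finger ratio of the list labelled H2A.Z, 1.70, was 2.95 without chromosome 19 windows, 1.38 for peaks up to 501 bp, 2.35 for wider ones and 3.56 against the same chromosomes. That of the list labelled H3K9me3, 1.56, was 2.14 without chromosome 19 windows and 1.90 for wider peaks. The share with a neighbour within 10 kb, 80.2% under the H2A.Z label, was 77.5 and 85.7% for narrow and wide peaks, 78.7% without chromosomes 11 and 20 and 76.3% after merging. Under the H3K9me3 label, 31.2% became 32.3, 29.2, 29.0 and 27.1% in that order. The cause of these shifts was not tested. No paired analysis was possible because each mark has 1 library. Unknown depth limits every absence of a peak.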

Other observations

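Olfactory receptor genes, which are silent in most tissues, were placed as a further set of 3 windows on chromosomes 1 and 11. The list labelled H2A.Z had 297 peaks there, at 64.6 per Mb (exact Poisson interval 57.4 to 72.3), and 0 of them lay within 10 kb of H3K27ac or H3K36me3. The list labelled H3K9me3 had 78 (13.4 to 21.2 per Mb), of which 20.5% were wider than 501 bp, against 35.1% elsewhere. Most lay in the window of the OR4, OR5 and OR8 families on chromosome 11, with 238 peaks labelled H2A.Z and 68 labelled H3K9me3 beside 7 of H3K4me2 and 2 of H3K27me3. Against the rest of the same chromosomes the ratios were 1.69 and 1.24. The window of the OR52 and OR51 families on the same chromosome held 5 and 3 peaks, so these gene clusters were not alike.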
